A study of Mus musculus with 32 samples.

Results

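The genes described here are 9 homeobox genes of the mouse, *Meis1*, *Meis2*, *Meis3*, *Pbx2*, *Pbx3*, *Pbx4*, *Pknox1*, *Pknox2* and *Tgif1*, chosen by symbol from the 53715 genes of the deposited tables, and all 9 were found and tested. Polyadenylated RNA had been sequenced from 2 brain regions, amygdala and hippocampus, of 16 males studied as adults. They were the F1 offspring of *Kmt2a*+/- fathers on the 129S1/SvImJ background and *Kdm5c*+/- mothers on the C57BL/6J background, and 4 mice represented each genotype, namely wildtype (WT), *Kmt2a*+/- (*Kmt2a*-HET), *Kdm5c*-/y (*Kdm5c*-KO) and *Kmt2a*+/-, *Kdm5c*-/y (double mutant, DM). Both regions came from the same 16 mice, which gave 32 libraries. Both mutations were constitutive, so that they were carried by every cell type and throughout development. The *Kmt2a* allele lacks internal exons only and *Kmt2a*-HET keeps 1 intact copy, so that gene-level totals check the genotypes to a limited degree.

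Meis, Pbx, Pknox and Tgif proteins are TALE homeodomain transcription factors, named for an extension of the loop between helices of the homeodomain. Pbx proteins form heterodimers with Meis or Pknox proteins and these pairs bind DNA together with Hox and other transcription factors, while Tgif1 is a repressor that works with Smad proteins and histone deacetylases. Meis genes are best known as targets of KMT2A fusion proteins in leukaemia, and *Meis2* and *Pbx3* are known in the forebrain for their expression in neurons that arise in the ventral forebrain, including projection neurons of the striatum. Whether the loss of a writer and an eraser of histone methylation moved these genes, and how they differ between both regions, were the questions that the design allows.

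The shared DNA-binding unit is shown first because it is what makes the 9 genes a family. Each line below gives the last 48 bases of a homeobox window of 189 bases, taken 5′ to 3′ from the most abundant coding transcript in GENCODE M21 that held exactly 1 in-frame match to TGG TTT or TGG TTC, any codon, and AAT or AAC. Capitals mark the 14 bases that were the same in all 9 genes.
Meis1: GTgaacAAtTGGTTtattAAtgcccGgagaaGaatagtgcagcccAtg
Meis2: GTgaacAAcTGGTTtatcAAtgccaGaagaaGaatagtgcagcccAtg
Meis3: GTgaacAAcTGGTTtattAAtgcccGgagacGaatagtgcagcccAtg
Pknox1: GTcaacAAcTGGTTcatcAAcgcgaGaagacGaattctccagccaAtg
Pknox2: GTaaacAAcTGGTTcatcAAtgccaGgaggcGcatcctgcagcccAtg
Pbx2: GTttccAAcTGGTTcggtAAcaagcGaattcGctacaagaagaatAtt
Pbx3: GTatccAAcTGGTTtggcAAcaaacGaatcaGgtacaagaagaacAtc
Pbx4: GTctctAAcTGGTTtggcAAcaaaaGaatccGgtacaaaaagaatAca
Tgif1: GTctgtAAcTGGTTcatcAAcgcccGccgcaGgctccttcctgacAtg
Over the 189 bases, *Meis1* and *Meis2* shared 84.1% of bases, *Pbx2* and *Pbx3* 82.5% and *Pknox1* and *Pknox2* 78.3%. *Meis2* shared 71.4% with *Pknox2*, 50.8% with *Pbx3* and 53.4% with *Tgif1*. The members lie at separate loci of mm10. *Meis2* is at chr2:115863064-116065839 and *Pbx3* at chr2:34171457-34373142, both on the minus strand of chromosome 2, and *Meis1* is at chr11:18879817-19018985 on the minus strand.

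The libraries held 19215503 to 26033615 gene counts for the amygdala and 19322262 to 27798980 for the hippocampus. *Kdm5c*, the targeted demethylase, fell by 0.30 on the log2 scale in the 8 libraries per region without an intact copy (*Kdm5c* factor, adjusted *p* = 0.042 for the amygdala and 0.00051 for the hippocampus in DESeq2), but the ranges of WT and *Kdm5c*-KO overlapped in the amygdala, with 1177 to 1965 against 1199 to 1400 normalised counts. *Kmt2a* totals did not separate the genotypes, at 2075 to 5469 normalised counts in WT and 3410 to 4480 in *Kmt2a*-HET amygdala. Hippocampal markers (*Prox1*, *Dsp*, *C1ql2*, *Fibcd1*, *Spink8*, *Zbtb20* and *Wfs1*) summed to 12368 to 39614 normalised counts in the hippocampus against 6991 to 10175 in the amygdala. Of the 4 amygdala markers 1 was called in the direction of the label, *Nr2f2*, whereas *Rspo2* went against it with a median of 83.0 normalised counts for the amygdala and 287 for the hippocampus, and *Prkcd* (-0.41, adjusted *p* = 0.30) and *Lmo3* (-0.03, adjusted *p* = 0.84) were not called in DESeq2 (log2 difference, hippocampus against amygdala). Their sums overlapped between regions. Markers of neighbouring tissue also varied among libraries, as given below beside the results they moved with.

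Levels of different genes were compared as CPKM, which are counts per kilobase of exon scaled to the gene counts of the library. *Pbx2*, a broadly expressed Pbx gene, was the highest member in both regions, with a median of 17.5 CPKM over the 16 amygdala libraries and 14.4 over the 16 hippocampal libraries, and its range overlapped that of no other member. In the amygdala *Meis3* followed at 8.79 CPKM and *Meis2* at 7.95, and this pair did not separate, since *Meis3* was the higher in only 9 of 16 libraries. *Pknox2* (5.06), *Pbx3* (4.15), *Pbx4* (2.45) and *Pknox1* (1.497) came next with ranges that overlapped each neighbour, and *Meis1* (0.812) and *Tgif1* (0.246) were lowest without overlap. In the hippocampus *Meis3* stayed second at 7.74 CPKM, *Pknox2* (3.72) passed *Meis2* (2.34) without the ranges separating, and *Pbx3* (0.641) stood below *Pknox1* and above *Meis1* (0.136). The hippocampal medians of *Pbx4* (1.60) and *Pknox1* (1.504) did not separate, with *Pbx4* the higher in 11 of 16 libraries, and neither did *Meis1* and *Tgif1* (0.128), each the higher in 8 of 16 libraries.

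The largest differences among the 9 genes lay between the regions. *Meis1*, *Meis2* and *Pbx3* were lower in the hippocampus of all 16 mice, and their ranges over 16 and 16 libraries did not overlap, as was the case for 1.75% of all 23650 genes tested in this direction and for 3.95% in either direction. Averaged over the 4 genotypes, 7 of 9 members were called lower in the hippocampus and none higher (DESeq2 Wald test, Benjamini-Hochberg adjusted *p* under 0.1), against 23.9% of all genes tested called lower and 46.3% called in either direction. The median log2 difference of the 9 members was -0.56, and that of all genes tested was -0.01. In bulk tissue, fewer cells of a type and less RNA per cell cannot be told apart.

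**Figure D1:**
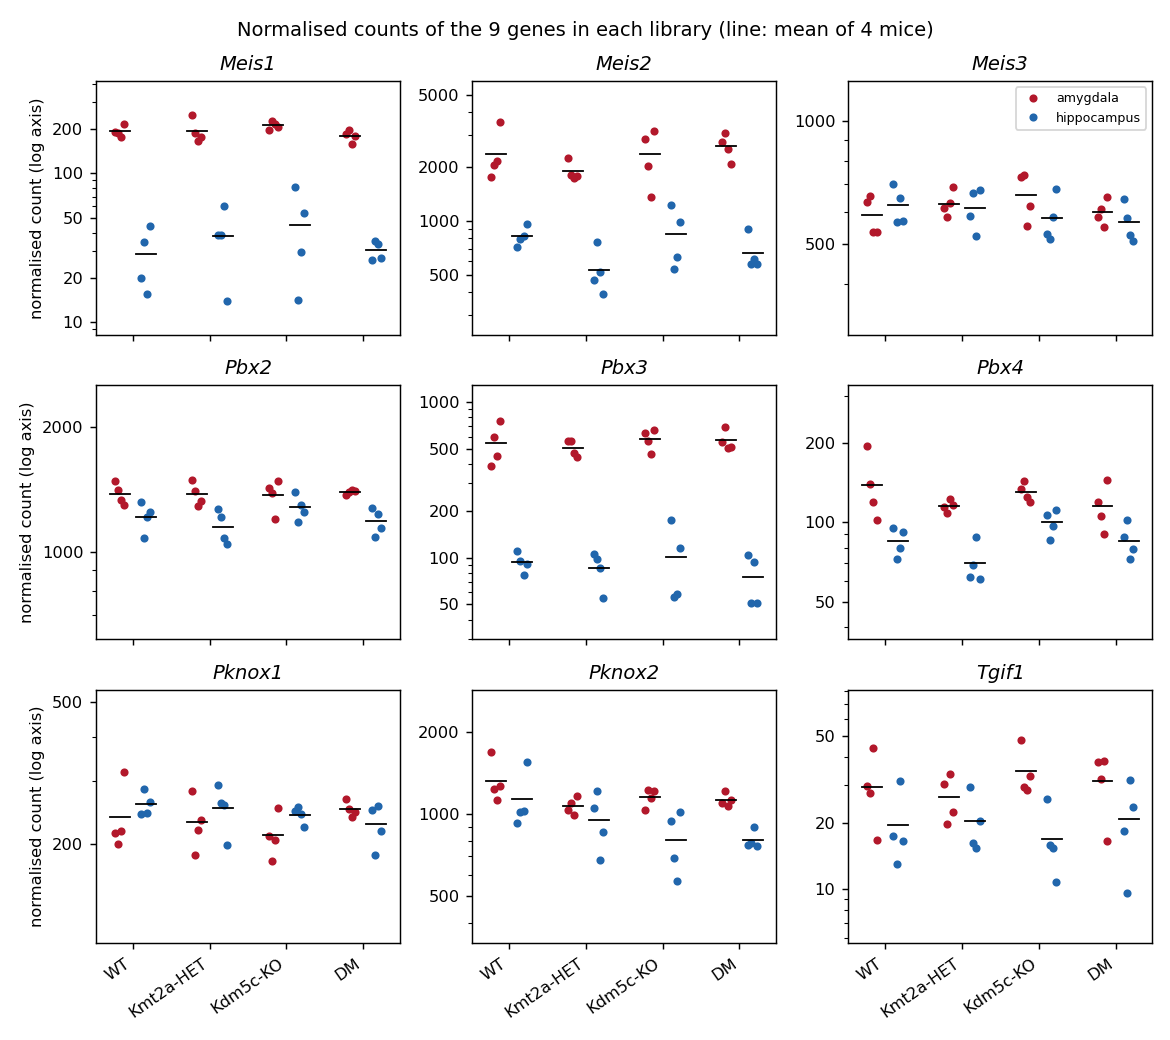
Normalised counts (log axis) of each of the 9 genes in the 32 libraries, by genotype on the x axis, with red points for amygdala, blue points for hippocampus and a line at the mean of 4 mice. *Meis1*, *Meis2* and *Pbx3* show red and blue points that do not overlap, while the points of *Meis3* and *Pknox1* intermix.

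Among the Meis genes, *Meis1* showed 190, 188, 176 and 216 normalised counts in the 4 WT amygdala libraries and 19.9, 34.9, 15.5 and 44.5 in the WT hippocampus. Every WT amygdala library stood above every WT hippocampal library. Over all genotypes it ranged from 159 to 245 normalised counts (median 189) in amygdala libraries and from 14.0 to 80.8 (median 34.1) in hippocampal ones, and the mean log2 difference was -2.46 ± 0.16 (SE, adjusted *p* = 1.8e-49). The hippocampal counts of *Meis1* were few, so that its level there is known less precisely than in the amygdala.

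*Meis2*, which is known for its expression in striatal projection neurons, had 1743, 2041, 2139 and 3513 normalised counts in the WT amygdala and 713, 792, 819 and 958 in the WT hippocampus. WT replicate 4 was the highest of its group in both regions. Over all genotypes *Meis2* ranged from 1355 to 3513 (median 2099) in amygdala libraries and from 394 to 1215 (median 671) in hippocampal ones. The mean log2 difference between regions was -1.69 ± 0.13 (SE, adjusted *p* = 2.7e-39), and the log2 ratio within a mouse ran from -2.41 to -1.11. *Meis3* stood apart from its paralogues, with 534 to 736 normalised counts for the amygdala, 510 to 702 in the hippocampus and a log2 difference of -0.06 (95% interval -0.17 to 0.06, adjusted *p* = 0.475). It was lower in the hippocampus in 9 of 16 mice.

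Among the Pbx genes, *Pbx3* differed the most. WT amygdala libraries held 386, 597, 452 and 755 normalised counts of *Pbx3*, and WT hippocampal libraries held 110, 95.7, 77.7 and 90.8. Over all genotypes the ranges were 386 to 755 (median 559) and 50.8 to 174 (median 92.3), and the mean log2 difference was -2.64 ± 0.14 (SE, adjusted *p* = 4.3e-80). Groups were again fully apart in each genotype. *Pbx4*, a Pbx gene best known from the testis, was lower in the hippocampus of 16 of 16 mice but with overlapping ranges, at 90.3 to 194 normalised counts for the amygdala against 61.1 to 111 for the hippocampus (log2 difference -0.56 ± 0.09 SE, adjusted *p* = 6e-09). *Pbx2* differed least of the 3, with medians of 1397 and 1224 normalised counts and a log2 difference of -0.20 ± 0.04 (SE, adjusted *p* = 5.6e-06). It was lower in the hippocampus in 15 of 16 mice. In mm10, *Pbx2* shares 227 exon bases with *Gpsm3* on the same strand. *Gpsm3* averaged 51.7 counts per library, and how reads of the shared bases were divided between both genes was not tested.

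The Pknox genes, which encode partners of Pbx related to Meis, did not move together. *Pknox2* ranged from 990 to 1687 normalised counts in amygdala libraries and from 571 to 1559 in hippocampal ones, and was lower in the latter in 13 of 16 mice (log2 difference -0.35 ± 0.09 SE, adjusted *p* = 0.00018). *Pknox1* ranged from 180 to 318 and from 187 to 294, was lower in the hippocampus in 6 of 16 mice and gave a log2 difference of 0.08 (95% interval -0.07 to 0.22, adjusted *p* = 0.45). *Tgif1*, the repressor, was scarce in both regions, with 16.6 to 47.9 and 9.58 to 31.6 normalised counts, and its log2 difference was -0.65 ± 0.19 (SE, adjusted *p* = 0.0018).

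Scaling by spike-in RNA in place of gene counts raised the hippocampus as a whole, with a median log2 difference of 0.64 over all genes tested, and the share of called genes that were lower there fell from 51.6% to 7.19%. Averaged over genotypes, *Meis1*, *Meis2* and *Pbx3* were still called lower under that scaling, at -1.78, -1.0 and -2.01, although *Meis2* lost its call within WT, *Kmt2a*-HET and *Kdm5c*-KO, whereas *Pbx2* (0.44), *Pbx4* (0.07) and *Pknox2* (0.39) changed sign and lost their calls. *Tgif1* (-0.04) lost its call too, and *Meis3* (0.57) and *Pknox1* (0.75) were called higher. Less the median shift of all genes, the differences of *Pbx2*, *Pbx4* and *Pknox2* were -0.20, -0.58 and -0.25. That subtraction largely undoes the spike-in scaling, so these values are no separate evidence.

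The same genes led within each genotype. In WT, 5 members were called, all lower in the hippocampus, against 11.3% of all genes tested (21.2% in either direction), namely *Meis1* (log2 difference -2.73 ± 0.33 SE), *Meis2* (-1.52 ± 0.25), *Pbx3* (-2.55 ± 0.27), *Pbx4* (-0.71 ± 0.18) and *Pbx2* (-0.19 ± 0.08). *Pbx2* had an adjusted *p* of 0.096 in WT, and leaving out 1 of 6 WT libraries, any except amygdala replicate 4 and hippocampus replicate 1, ended that call. It was also lost in edgeR (adjusted *p* = 0.10), with TMM size factors (0.11), without the libraries numbered 1 (0.11) and in a fit of only the 8 WT libraries (0.34), with log2 differences of -0.19, -0.19, -0.19 and -0.18, and the sign turned with spike-in size factors (0.60). In *Kmt2a*-HET the same 5 members were called, against 14.8% of genes lower and 29.6% in either direction. In *Kdm5c*-KO the 5 called members were *Meis1*, *Meis2*, *Pbx3*, *Pknox2* (-0.53 ± 0.17) and *Tgif1* (-1.03 ± 0.38), against 12.0% lower and 24.0% in either direction. In DM 6 were called, against 13.8% lower and 27.1% in either direction, namely *Meis1*, *Meis2*, *Pbx3*, *Pbx2*, *Pbx4* and *Pknox2*. *Pbx4* in DM (-0.43 ± 0.18, adjusted *p* = 0.07) lost its call when the mouse was a block (-0.42, adjusted *p* = 0.10), without the libraries numbered 1 (adjusted *p* = 0.13), in a fit of only the 8 DM libraries, with spike-in size factors, and without amygdala replicate 1 or 4 or hippocampus replicate 3 or 4 of DM. *Tgif1* in *Kdm5c*-KO lost its call without amygdala replicate 1 (-0.84) or hippocampus replicate 4 (-0.87), and *Pknox2* in *Kdm5c*-KO without hippocampus replicate 3 (-0.39). Without WT hippocampus replicate 4, *Pknox2* was called in WT (-0.42), and without *Kdm5c*-KO hippocampus replicate 4, *Meis3* was called in *Kdm5c*-KO (-0.28).

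**Figure D2:**
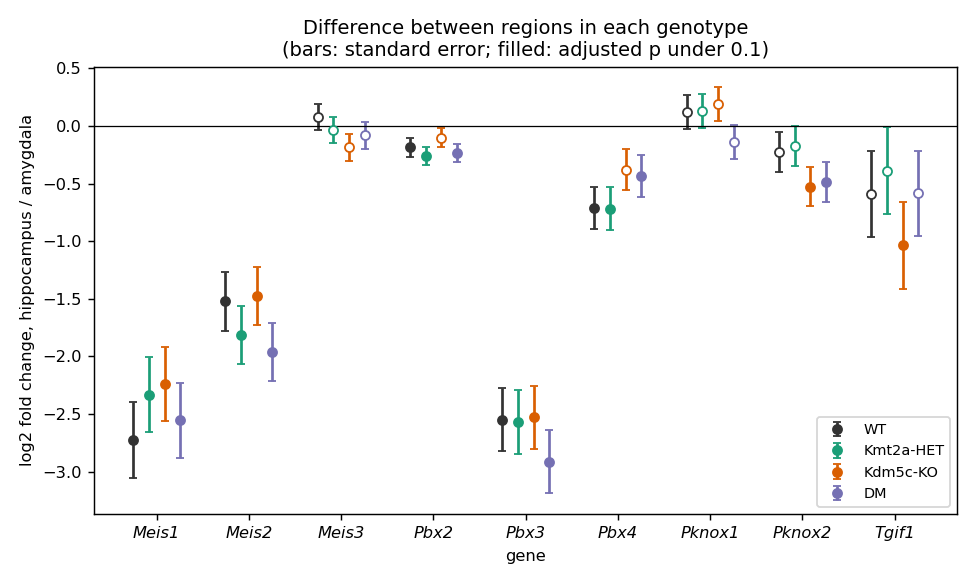
Log2 fold change of hippocampus over amygdala (y axis) for each gene (x axis) in the 4 genotypes, with standard errors as bars and filled points where the adjusted *p* was under 0.1. *Meis1*, *Meis2* and *Pbx3* lie between -2.91 and -1.48 in all 4 genotypes.

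Whether a genotype changed the difference between regions was tested directly. None of the 9 members was called for *Kmt2a*-HET, *Kdm5c*-KO or DM against WT, where 0.00%, 0.00624% and 0.0125% of all genes were called, and 0 of the 27 values reached an unadjusted *p* under 0.05 in DESeq2 or a call in edgeR. For *Meis2* the region difference in DM departed from that in WT by -0.44 on the log2 scale (95% interval -1.14 to 0.26), and for *Pbx3* by -0.36 (95% interval -1.12 to 0.40). Both intervals include departures of more than 1.0 on the log2 scale.

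Markers of neighbouring tissue and of cells of the amygdala itself moved with the region difference. The 10 striatal neuron markers (among them *Drd1*, *Drd2* and *Ppp1r1b*) were all called lower in the hippocampus, and their sum ranged from 12485 to 79811 normalised counts in amygdala libraries and from 5817 to 21499 in hippocampal libraries, with none of the 10 at 0 throughout a region. The 6 hypothalamic and 3 thalamic markers were also all lower in the hippocampus, with sums of 1578 to 7816 against 36.6 to 761 and of 426 to 4262 against 355 to 1346. The 3 markers of intercalated cells, GABA neurons of the amygdala (*Foxp2*, *Tshz1* and *Oprm1*), were all called lower in the hippocampus, with sums of 1159 to 2676 against 526 to 1046. GABA neuron markers summed to 22883 to 33809 normalised counts for the amygdala and 9748 to 17389 for the hippocampus. Of these, *Gad1*, *Gad2*, *Slc32a1*, *Sst* and *Lamp5* had lower medians in the hippocampus. The medians of *Pvalb* (774 for the amygdala, 744 for the hippocampus) and *Vip* (138 and 137) were close. The part of these tissues and cells in the differences of *Meis1*, *Meis2* and *Pbx3* was not tested.

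Within the amygdala, *Meis2* followed the striatal markers from library to library. Across the 16 amygdala libraries the log2 level of *Meis2* correlated with the log2 sum of the 10 striatal markers at Pearson *r* = 0.94 and Spearman rho = 0.98 (permutation *p* = 1e-05 for each, the smallest that 100000 permutations can give; adjusted *p* = 0.00018 over 18 relations). Without the 2 libraries farthest from the median of the markers *r* was 0.95, without the libraries numbered 1 it was 0.95 (12 libraries), and after removing genotype means it was 0.95. *Kdm5c*-KO replicate 3 had the lowest amygdala values of both, 1355 for *Meis2* and 12485 for the markers, and WT replicate 4 had the highest *Meis2* with 78862 for the markers. *Pbx3* followed the same markers less closely (*r* = 0.77, rho = 0.76, permutation *p* = 0.00037 and 0.001, adjusted *p* = 0.0033 and 0.009), with *r* = 0.72 without the 2 farthest libraries and 0.71 without the libraries numbered 1. For *Meis1* the relation did not pass the test (*r* = 0.08, rho = 0.20, permutation *p* = 0.78 and 0.46, adjusted *p* = 0.78 and 0.75). For *Pknox1* *r* was 0.56 and rho 0.61 (adjusted *p* = 0.15 and 0.09), and for *Pbx4* the values were of the other sign, *r* = -0.51 and rho = -0.48 (adjusted *p* = 0.17 and 0.29). *Meis3*, *Pbx2*, *Pknox2* and *Tgif1* had *r* from -0.28 to 0.41, and none of them passed the test. The share of all genes that follow the striatal markers as closely as *Meis2* or *Pbx3* was not counted. Whether the relation sets these members apart from other genes was therefore not tested.

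**Figure D3:**
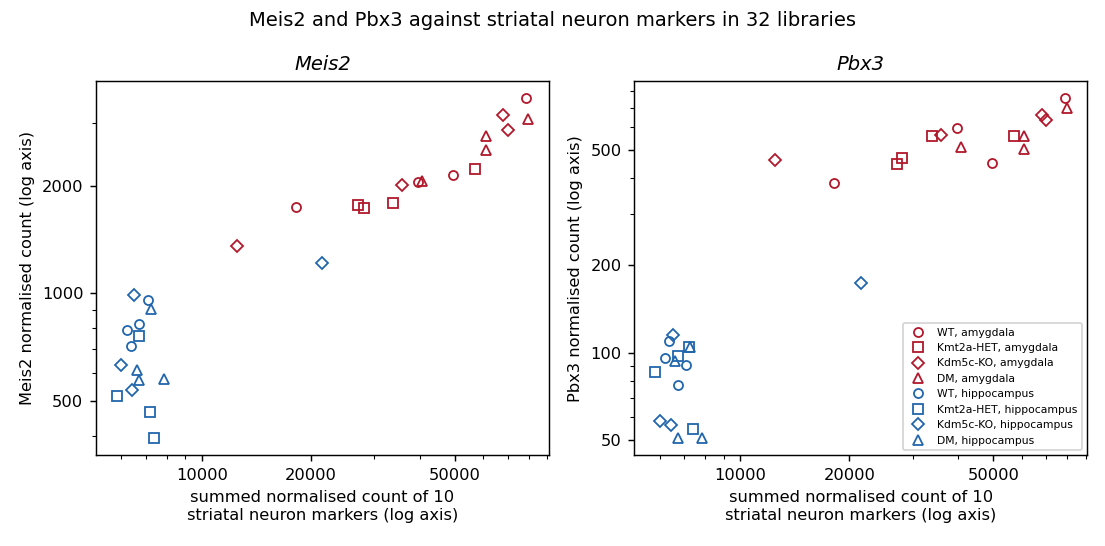
Normalised counts of *Meis2* and *Pbx3* (y axes, log) against the summed normalised count of 10 striatal neuron markers (x axes, log) in the 32 libraries, with red symbols for amygdala, blue for hippocampus and a shape for each genotype. In the amygdala both genes are higher where the markers are higher, and 1 hippocampal library at 21499 stands apart from the other 15.

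In the hippocampus no such relation passed the test. *Kdm5c*-KO replicate 1 had the highest striatal sum there (21499, against 5817 to 7862 in the other 15 libraries), the highest choroid plexus sum (104171) and the lowest hippocampal marker sum (12368), and it also had the highest hippocampal *Meis1* (80.8), *Meis2* (1215), *Pbx2* (1396) and *Pbx3* (174). For *Meis2* the correlation was *r* = 0.46 and rho = 0.14 over 16 libraries (permutation *p* = 0.075 and 0.60, adjusted *p* = 0.21 and 0.83) and *r* = -0.03 without the 2 farthest libraries, so that it rested on those. The region differences in *Kdm5c*-KO were as large without that library, at -2.69 for *Meis1*, -1.71 for *Meis2* and -2.92 for *Pbx3*.

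The genes most like each member were found by Pearson correlation of log2 normalised counts among genes with a mean of at least 50, as a description. Values of 1 library share its depth and its tissue composition, and over 32 libraries they share the gap between regions. Over the 32 libraries the closest genes to *Meis2* were *Ptpn5* (0.97), *Gpr6* (0.97) and *Arpp21* (0.96), those to *Pbx3* were *Slc32a1*, the vesicular GABA transporter (0.98), *Rasgrp2* (0.98) and *Kazn* (0.97), and those to *Meis1* were *Arhgap6* (0.97), *Dhrs13* (0.96) and *AW551984* (0.96). Within the 16 amygdala libraries *Meis2* was closest to *Gng7* (0.98), *Asic4* (0.97) and *Dclk3* (0.96), *Pbx3* to *Entpd3* (0.91), *Klhl29* (0.89) and *Ntn1* (0.89), and *Pbx4* to *Engase* (0.97), *1810043G02Rik* (0.94) and *Ly6h* (0.94). Within the 16 hippocampal libraries *Pknox2* was closest to *Rhobtb2* (0.95), *Mef2c* (0.93) and *Ipcef1* (0.93), *Pbx2* to *Ndufb9* (0.94), *Pcdhgc4* (0.92) and *Rgs10* (0.91), and *Meis2* to *Cyb561* (0.90), *Doc2a* (0.86) and *Gm10076* (0.85). For *Meis3*, *Pknox1* and *Tgif1* the closest genes over the 32 libraries reached only 0.72 (*Iglon5*), 0.67 (*Abcf2*) and 0.77 (*Syf2*), and that of *Pbx4* was *Hes5* (0.92). Between members, *Meis2* and *Pbx3* correlated at 0.80 within the amygdala and 0.68 within the hippocampus.

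The mutations were compared with WT, with each other and as factors. None of the 9 members was called in any of the 16 comparisons of genotype, and edgeR called none either. Of the 144 values 8, or 5.56%, had an unadjusted *p* under 0.05 in DESeq2, and all 8 belonged to *Meis2* or *Pknox2*. The share of all gene values over these comparisons was at most 5.05%. Genes that DESeq2 filtered out were counted among those under 0.05 but not in the total, so this share is too high. Several of these comparisons share their WT libraries. In the amygdala 0.00988% of genes were called for *Kmt2a*-HET, 0.756% for *Kdm5c*-KO and 0.990% for DM against WT, and in the hippocampus 0.00%, 1.01% and 0.881%. The shares called were 0.00329% for DM against *Kdm5c*-KO, 0.805% for DM against *Kmt2a*-HET, 0.00% for the *Kmt2a* factor, 1.66% for the *Kdm5c* factor and 0.00329% for the interaction in the amygdala. In the same order the hippocampal shares were 0.00670%, 0.606%, 0.0878%, 2.42% and 0.00%.

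**Figure D4:**
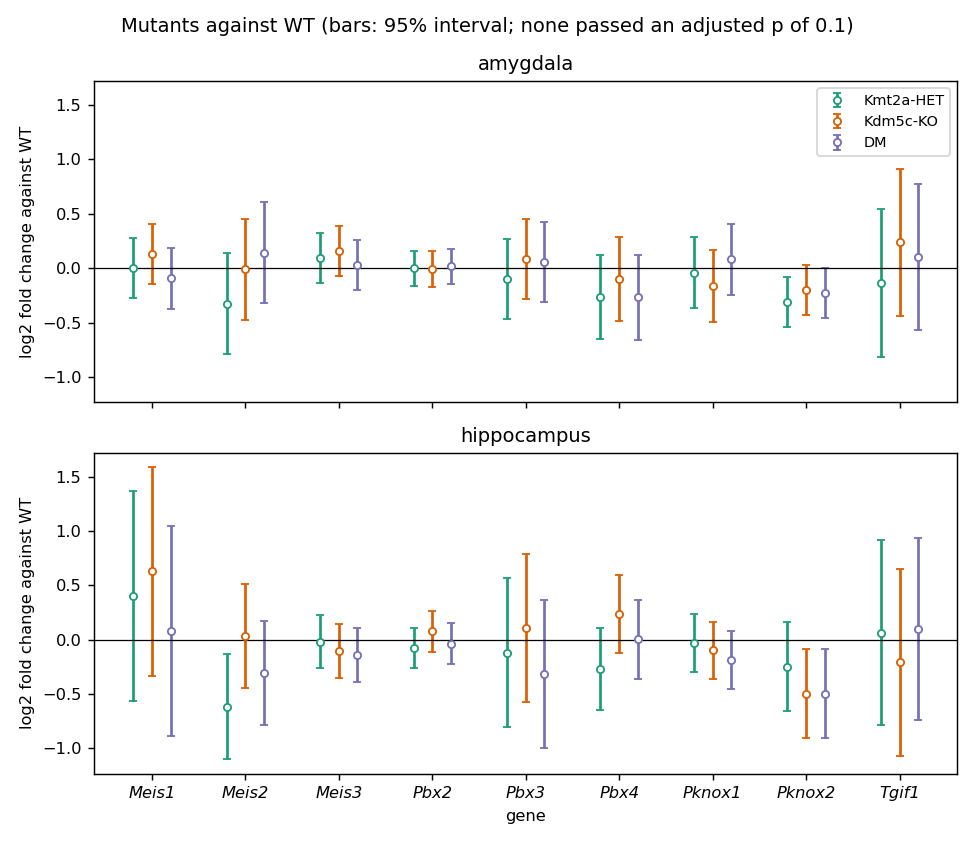
Log2 fold change of each mutant against WT (y axis) for each gene (x axis) in the amygdala (top) and the hippocampus (bottom), with 95% intervals as bars and open points because no adjusted *p* was under 0.1. *Pknox2* lies below 0 in all 6 comparisons and the intervals of *Meis1* and *Tgif1* in the hippocampus are the widest.

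*Pknox2* gave 5 of these 8 values and *Meis2* 3. Normalised amygdala counts of *Pknox2* stood at 1687, 1237, 1130 and 1265 in the WT mice. *Kmt2a*-HET mice had 1033, 1103, 990 and 1166, *Kdm5c*-KO mice 1038, 1231, 1146 and 1219, and DM mice 1099, 1222, 1075 and 1132. WT replicate 1 was the highest library, WT replicates 2 and 4 lay just above the highest mutant library, and WT replicate 3 lay among the mutants. *Kmt2a*-HET differed from WT by -0.31 (log2, 95% interval -0.54 to -0.08, unadjusted *p* = 0.0084, adjusted *p* = 1), and by -0.17 without WT replicate 1. That library also had the lowest GABA neuron (22883), oligodendrocyte (40901), thalamic (426) and intercalated cell marker sums (1159) of the amygdala libraries. Its microglia (6599) and amygdala marker sums (7174) were the highest of them, and its part was not tested beyond leaving it out.

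In the hippocampus *Pknox2* had 928, 1022, 1024 and 1559 normalised counts in WT mice. *Kmt2a*-HET mice had 1054, 1215, 679 and 858, *Kdm5c*-KO mice 944, 689, 571 and 1017, and DM mice 774, 783, 901 and 765. WT and DM did not overlap, whereas WT and *Kdm5c*-KO did. The share of all genes that separate in this way between 4 and 4 libraries was not counted. Summed GABA neuron markers (14094 to 17389 in WT and 9748 to 13867 in DM), astrocyte markers (9064 to 13119 and 15205 to 17449) and amygdala markers (3134 to 4248 and 4417 to 4925) did not overlap between these WT and DM libraries either, and their part was not tested. The log2 differences from WT were -0.50 in *Kdm5c*-KO (95% interval -0.90 to -0.09, adjusted *p* = 0.43) and -0.50 in DM (95% interval -0.91 to -0.09, adjusted *p* = 0.469), and both were -0.30 without WT replicate 4. That library had the highest GABA neuron sum (17389) and the lowest astrocyte (9064) and amygdala marker sums (3134) of the 16 hippocampal libraries, and the lowest hippocampal marker sum of its group (13039, against 18973 to 25867). For the *Kdm5c* factor, in which the 8 libraries without *Kdm5c* were compared with the other 8, *Pknox2* differed by -0.37 (adjusted *p* = 0.27), and only leaving out *Kmt2a*-HET replicate 3 brought it under the threshold (-0.44, adjusted *p* = 0.077).

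*Meis2* in the hippocampus had 713, 792, 819 and 958 normalised counts in WT mice. *Kmt2a*-HET mice had 465, 760, 517 and 394, *Kdm5c*-KO mice 1215, 537, 629 and 986, and DM mice 901, 578, 610 and 572. *Kmt2a*-HET overlapped WT by 1 library. *Kmt2a*-HET replicate 4, the lowest in *Meis2*, had the highest hippocampal marker sum of the 32 libraries (39614, against 20061 to 22002 in the other *Kmt2a*-HET hippocampi) and a GABA neuron sum of 10434 against 13915 to 16592, and it was also the lowest hippocampal library for *Meis1*, *Pbx2* and *Pbx4*. *Kmt2a*-HET differed from WT by -0.62 (log2, 95% interval -1.10 to -0.14, unadjusted *p* = 0.012, adjusted *p* = 1) and by -0.50 without that library, and the *Kmt2a* factor, *Kmt2a*-HET and DM against WT and *Kdm5c*-KO, by -0.48 (unadjusted *p* = 0.0057, adjusted *p* = 0.37). Without *Kdm5c*-KO replicate 1, the library high in striatal and choroid plexus markers, the factor was -0.36, and without *Kdm5c*-KO replicate 2 it was -0.56 and passed (adjusted *p* = 0.073).

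In the amygdala *Meis2* had 2228, 1791, 1733 and 1763 normalised counts in *Kmt2a*-HET mice, 2745, 3071, 2507 and 2060 in DM mice, and 2851, 2010, 1355 and 3144 in *Kdm5c*-KO mice. Only DM replicate 4 fell below the highest *Kmt2a*-HET library. DM exceeded *Kmt2a*-HET by 0.47 (log2, unadjusted *p* = 0.047, adjusted *p* = 0.75), and a fit of only these 8 libraries called it (0.47, adjusted *p* = 0.015). The summed striatal markers moved the same way, with 56887, 33786, 27983 and 27013 in *Kmt2a*-HET and 60892, 79811, 60795 and 40612 in DM, and choroid plexus markers reached 40727 in DM replicate 1 and 7557 in replicate 3 against 777 to 1114 in the other DM and 913 to 1051 in the *Kmt2a*-HET libraries. Intercalated cell markers summed to 1449 to 1693 in *Kmt2a*-HET and to 1898, 2453, 1842 and 1565 in DM. Hypothalamic markers summed to 4863 to 6263 in *Kmt2a*-HET and to 2130, 2068, 2123 and 7816 in DM. The part of these markers in the *Meis2* difference was not tested.

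For the other members the comparisons with WT bounded a change to different degrees. *Pbx2* differed from WT by -0.08 to 0.08 over the 6 comparisons and every 95% interval lay within -0.26 and 0.26. *Meis3* (-0.14 to 0.16, intervals within -0.39 and 0.39) and *Pknox1* (-0.19 to 0.08, intervals within -0.49 and 0.41) were bounded next most closely. For *Pbx3* (-0.32 to 0.11) and *Pbx4* (-0.27 to 0.24) the intervals reached -1.0 and -0.66. For *Meis1* and *Tgif1*, the scarcest members, the intervals together spanned -0.89 to 1.59 and -1.07 to 0.94 in the hippocampus. The interaction, DM against what the single mutants add up to, was called for no member, and for *Meis2* it was 0.48 in the amygdala (95% interval -0.18 to 1.14) and 0.28 in the hippocampus (95% interval -0.40 to 0.96).

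The other genes of the pathway were taken from lists. Of 9 other TALE homeobox genes 8 were tested, and averaged over genotypes 5 were lower in the hippocampus, beside 23.9% of all genes, and 1 was higher, with a median log2 difference of -1.21. The 5 were Iroquois genes, regulators of regional identity, led by *Irx1* (43.2 to 141 normalised counts in the amygdala, 7.77 to 51.9 in the hippocampus, log2 difference -2.04 ± 0.20 SE) and *Irx2* (-3.15 ± 0.38), with *Irx3*, *Irx5* and *Irx6* also lower, and the 1 was *Mkx* (0.85 ± 0.15). Hox genes, whose proteins use Meis and Pbx as cofactors, were at low counts. Of 39 Hox genes 12 were at 0 in all 32 libraries and none reached 10 counts in 4 libraries.

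Of 7 partners of Pbx and Tgif 4 were called between regions, beside 46.3% of all genes tested, so that their share lay near the background. *Smad3* (0.47 ± 0.06) and *Hdac1* (0.35 ± 0.05) were higher in the hippocampus and *Smad2* (-0.26 ± 0.05) and *Sin3a* (-0.11 ± 0.04) were lower (log2 difference ± SE). *Pbxip1*, which encodes a protein that binds Pbx, was called higher with loss of *Kdm5c* in the hippocampus (*Kdm5c* factor, 0.35 ± 0.10 SE, adjusted *p* = 0.046; 2.42% of all genes tested were called), where choroid plexus markers were also called higher for 5 of 6 genes, and its part was not tested. Of 15 genes of the Kmt2a complex and its fusion partners 8 were called, beside 46.3% of all genes. Higher in the hippocampus were 7, beside 22.4% of all genes called higher, led by *Mllt3* (0.49 ± 0.06) and *Dot1l* (0.43 ± 0.06), and *Dpy30* was lower (-0.24 ± 0.09), with a list median of 0.15.

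Transcription factors of the ventral forebrain (subpallium) followed the direction of *Meis1*, *Meis2* and *Pbx3*. Of 16 such genes 14 were lower in the hippocampus and none higher, beside 23.9% of all genes called lower, with a median log2 difference of -1.38. *Isl1* (22.8 to 252 normalised counts in the amygdala, 0.00 to 26.9 in the hippocampus), *Lhx8* (19.9 to 377 and 0.00 to 29.2), *Foxp2* (204 to 1142 and 11.2 to 222) and *Dlx6* (116 to 357 and 26.9 to 105) were among them, while *Foxp1* and *Pax6* were not called. In the genotype comparisons 1 of these 16 genes was called, *Lhx6*, which marks a class of GABA neurons, higher with loss of *Kdm5c* in the amygdala (*Kdm5c* factor, 0.35 ± 0.10 SE, adjusted *p* = 0.056), where 1.66% of all genes tested were called. The share of all genes called was 0.00% to 2.42% over the genotype comparisons, and 1 call of these 16 genes over all those comparisons does not stand above it.

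The transcript tables give expected counts for each annotated transcript, and they are described without a test. *Meis2*-202 was the main *Meis2* transcript in both regions, with medians of 56.6% of the gene's counts in amygdala libraries and 57.2% in hippocampal ones, and *Meis2*-205 followed at 20.04% and 20.2%. *Pknox1*-201 (92.1% and 86.0%), *Pbx2*-201 (86.4% and 87.1%), *Meis1*-201 (77.4% and 72.1%) and *Pknox2*-201 (70.7% and 74.4%) were the main transcripts of their genes. *Meis3* was divided among *Meis3*-201 (43.2% and 36.7%), *Meis3*-205 (22.7% and 22.1%) and a retained-intron transcript, *Meis3*-202 (18.8% and 21.9%). *Pbx4* was the exception, since *Pbx4*-205, annotated as a target of nonsense-mediated decay, held the largest share (36.5% and 36.0%) and the coding *Pbx4*-201 only 12.1% and 11.9%.

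*Pbx3* is given with its sequence because its 2 main coding transcripts differ by 1 coding exon. The exon at chr2:34176749-34176861 (mm10, minus strand) is present in *Pbx3*-201 and skipped in *Pbx3*-202. Its 113 bases, which are not a multiple of 3, read 5′ to 3′ as follows, in capitals because the whole run is the alternative part.
Pbx3 exon: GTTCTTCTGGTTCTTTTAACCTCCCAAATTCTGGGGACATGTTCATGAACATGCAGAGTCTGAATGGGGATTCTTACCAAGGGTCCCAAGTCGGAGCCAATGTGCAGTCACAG
The exon was in 38.6 to 62.3% (median 53.3%) of the counts of these transcripts in the 16 amygdala libraries and in 38.4 to 86.5% (median 65.6%) in the 16 hippocampal libraries. Group means in the amygdala ran from 48.6 to 54.8% and in the hippocampus from 58.6% ± 22.1 (SD, n = 4, DM) to 72.6% ± 10.4 (SD, n = 4, *Kmt2a*-HET). The ranges of both regions overlapped, and hippocampal shares rested on 39.9 to 155 counts per library against 395 to 801 in the amygdala.

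*Meis2* transcripts differ likewise by a 21-base coding segment, at chr2:115867359-115867379 (mm10, minus strand), which keeps the reading frame. It is present in *Meis2*-201, *Meis2*-204 and *Meis2*-205 and absent from *Meis2*-202, *Meis2*-203 and *Meis2*-206, and it is shown in capitals as the alternative part.
Meis2 segment: GTTTTCTTCTTGATCCTTCAG
Transcripts with this segment held 28.0 to 48.0% (median 36.3%) of the counts of the *Meis2* transcripts just named for the amygdala and 14.4 to 44.8% (median 33.4%) for the hippocampus. Group means ran from 34.8% ± 2.10 (SD, n = 4, DM) to 41.5% ± 7.51 (SD, n = 4, WT) in the amygdala and from 30.8% ± 11.4 (SD, n = 4, *Kdm5c*-KO) to 35.3% ± 7.76 (SD, n = 4, DM) in the hippocampus, and both forms were present in every library. A further coding segment of 56 bases was in a median of 88.6% of the counts of the same *Meis2* transcripts in amygdala libraries and 90.9% in hippocampal ones.

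**Figure D5:**
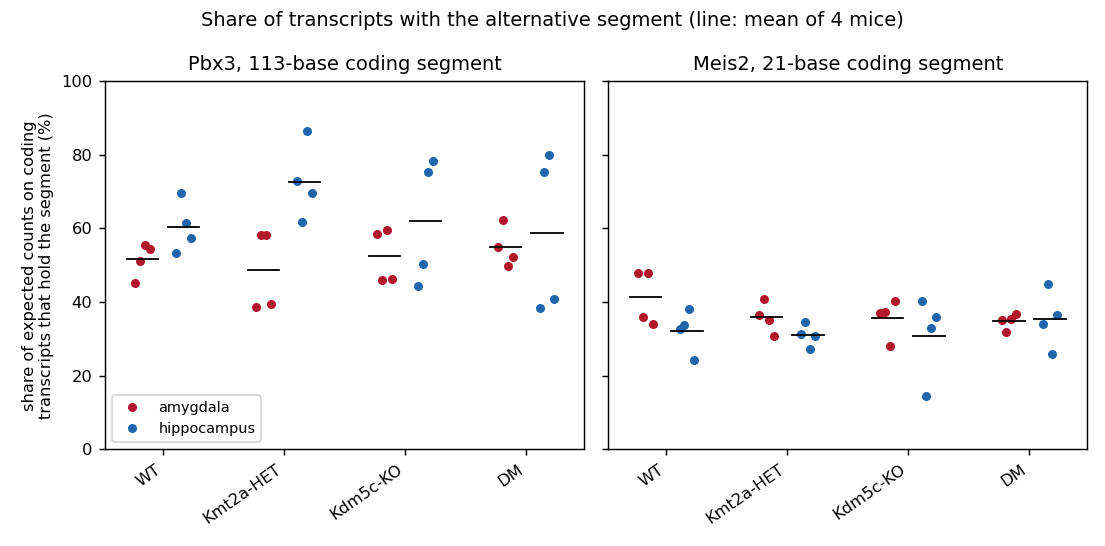
Share of expected counts on coding transcripts that hold the 113-base *Pbx3* exon (left) or the 21-base *Meis2* segment (right), in percent, by genotype, with red points for amygdala, blue for hippocampus and a line at the mean of 4 mice. Hippocampal points spread more widely than amygdala points for *Pbx3*, and the *Meis2* points of both regions overlap.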

How the data were processed

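Libraries of 16 mice, 1 per region, were made from polyadenylated RNA with strand information, and ERCC spike-in RNA was included. Per the labels, reads were mapped to mm10 with STAR 2.5.3a and counted with featureCounts of Subread 1.5.0. The authors kept uniquely mapped reads and removed duplicates, which lowers counts of abundant RNA and of genes with near-identical copies. The deposited tables name their values expected counts per gene and per transcript, and the estimator behind them is not given in the sources used here. No reads were mapped here.

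Expected counts were rounded. The test was the Wald test of DESeq2 1.42.0 (R 4.3.3, default size factors and filtering, called at an adjusted *p* under 0.1). All 16 libraries of a region entered the fits of genotype, and all 32 entered 1 fit of 8 groups for regions. Levels are normalised counts on size factors over 32 libraries. In CPM, 3 counts, the floor used here, were 0.108 to 0.156, which covers counting error only. Symbols, exons and transcript sequences came from GENCODE M21, matched without ID version, and all 9 members were matched. Genes most like a member were the 3 with the highest Pearson *r* among genes with a mean of 50 or more. Relations with striatal markers used 100000 permutations, adjusted over 18.

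The alternatives were edgeR 4.0.16 (quasi-likelihood, TMM), TMM or spike-in size factors, a filter of 10 counts in 4 libraries, an adjusted *p* under 0.05, each library left out, the libraries numbered 1 left out, blocks, and fits of only the groups compared. The code was tested on simulated data. Both regions of a mouse share a number in the labels. The median correlation of deviations from group means was 0.17 for libraries of the same mouse (14 of 16 over 0.1) and -0.08 for other mice of its genotype. The mouse was therefore the block in an alternative fit of the regions. The standard errors and *p* values printed for regions come from the main fit of 8 groups, which ignores this pairing unless the block is named. Replicates are separate mice, and no pair agreed within counting error (3.89 to 135 chi-square per gene). The members and lists were chosen with earlier results of these data known. Results for a few single genes outside the 9 members are not reported here.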

Additional observations from a re-analysis of the deposited data

Results flagged for a closer look

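In 5 of the 72 sets of 4 libraries (9 genes in 8 groups), 1 library lay far from the other 3 by Dixon's gap test at the 95% level, and chance flags about 1 in 20 such sets. *Meis2* was high in *Kmt2a*-HET amygdala replicate 1 (2228 normalised counts, against 1733 to 1791 in the others) and in DM hippocampus replicate 1 (901, against 572 to 610). The first of these libraries had the highest striatal marker sum of its group (56887), and DM hippocampus replicate 1 did not stand out for those markers (7252, against 6611 to 7862 in the others). *Pknox1* was high in WT amygdala replicate 4 (318, against 200.2 to 218), the WT library with the most *Meis2*, *Pbx3* and striatal marker RNA. *Pknox2* was high in WT hippocampus replicate 4 (1559, against 928 to 1024) and in DM hippocampus replicate 3 (901, against 765 to 783), and WT hippocampus replicate 4 had the highest GABA neuron (17389) and the lowest astrocyte sum (9064) of the hippocampal libraries. The part of these markers in the outlying values was not tested. No difference of a member between regions was found to depend on genotype.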

How the results depend on the processing

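Calls for *Meis1*, *Meis2* and *Pbx3* averaged over genotypes held under all 38 alternatives run, with log2 differences of -2.57 to -1.78, -1.75 to -1.0 and -2.85 to -2.01. Spike-in size factors changed the most. They gave 2 called members for WT and 2 for *Kmt2a*-HET in place of 5 each, 3 for *Kdm5c*-KO in place of 5 and 3 for DM in place of 6. *Pknox1* was a new call, higher in the hippocampus, in *Kdm5c*-KO (1.06, adjusted *p* = 0.098) and averaged (0.75, adjusted *p* = 0.0050). The sign turned in 19 of 45 region values, and in 9 of these the value was called under one of both scalings, namely for *Pbx2* (0.60 in WT, 0.24 in *Kmt2a*-HET, 0.19 in DM and 0.44 averaged), *Pbx4* (0.071 in WT and 0.065 averaged), *Pknox2* (0.42 in *Kdm5c*-KO and 0.39 averaged) and *Meis3* (0.57 averaged, adjusted *p* = 0.041). Spike-in scaling raised the hippocampus as a whole, and which scaling is nearer to the RNA content of the tissue was not tested. Among genotype comparisons, the number of called members went from 0 to 1 for DM against *Kmt2a*-HET in the amygdala when only those libraries were fitted, and ranged from 0 to 1 over left-out libraries for the *Kmt2a* and *Kdm5c* factors in the hippocampus. Of the 144 genotype values 50 had the other sign with spike-in size factors, 3 with edgeR and 21 without the libraries numbered 1, none of them called. The replicate block left 0 members called in each comparison of genotype, as did the main design, and 5 values had the other sign. The labels do not say that a number is shared between genotypes. Deviations of same-numbered libraries correlated at a median of 0.089 in the amygdala (11 of 24 pairs over 0.1) and 0.00077 in the hippocampus (8 of 24), against -0.049 (14 of 72) and -0.0075 (18 of 72) for other numbers. The mouse block ended 1 of 28 region calls, *Pbx4* in DM, and changed no other. Depth limits *Tgif1* in both regions and *Meis1* in the hippocampus.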
